A study of Mus musculus with 20 samples.

Results

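The genes described are 9 markers of lipid-associated macrophages: Trem2, Tyrobp, Gpnmb, Lgals3, Spp1, Itgax, Cd9, Cd68 and Mpeg1. They were chosen by name, every probe whose gene name on the array equalled one of the 9 being taken, and they make up 9 of the 28875 gene names or identifiers on the array. The 9 genes were covered by 15 probes. Total RNA was measured on 20 Agilent mouse genome arrays of 1 colour, 5 for each combination of tissue and genotype, and each array of a group came from a different mouse. The tissues were liver and white adipose tissue (WAT), whose depot the labels do not name. All mice were C57BL/6 males, 5 months old, and all had eaten a diet of 35% fat for 6 weeks, so no group on ordinary chow stands beside them. The controls were wild-type (WT) mice. The other mice were homozygous for the staggerer allele (RORasg/sg, written sg/sg here), a natural deletion in the gene of the nuclear receptor RORα. The allele is carried by every cell of the animal, macrophages, adipocytes and hepatocytes included.

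Lipid-associated macrophages gather around dying, overfilled adipocytes in obese fat, where they take up and break down lipid. The surface receptor TREM2 binds lipids and cell debris and signals through its partner TYROBP (also called DAP12), an adaptor with an activation motif that recruits the kinase SYK. Cells in this state switch on Gpnmb, Lgals3, Spp1, Itgax and Cd9, while Cd68 and Mpeg1 are made by macrophages in general. The same program is described for macrophages in fatty liver.

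A level here is log2 of a probe's processed intensity relative to the 75th percentile of its array, so 0 is the brightness of that percentile and 1 unit is a doubling. Levels of different probes cannot be set against each other. To be tested in a tissue, a probe had to be called well above background by Agilent's software on 4 or more of its 10 arrays. By that filter 11 probes of 8 genes were tested in liver and 14 probes of 9 genes in WAT. The 4 probes not tested in liver were both Gpnmb probes and 2 of the 3 Cd9 probes. One of those Cd9 probes, A_51_P323341, was well above background on 0 of the 20 arrays. No spot of the 15 probes was saturated. The share of spots well above background ran from 57.1% to 63.0% in liver and from 72.5% to 81.5% in WAT. In each tissue the 3 Rora probes had all their sg/sg arrays below all their WT arrays, with mean differences of -2.72 to -2.88 on the log2 scale, which matches the genotype labels.

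The promoters of the members were read from RefSeq (assembly GRCm38.p6), where 8 of the 9 genes had an entry, Spp1 with a pair of starts, and Tyrobp had none. The motifs searched numbered 4 and were read on both strands of the 250 bases before each start. They were AGGTCA, the core that RORα shares with many nuclear receptors, GAGGAAG, of the kind bound by the myeloid factor PU.1, CACGTG, the E-box read by MITF and TFE factors, and TGANTCA, the AP-1 site. The 3 promoters below are those with a TGANTCA match. Their genes were lower in sg/sg WAT, but so were Gpnmb, Lgals3, Spp1 and Mpeg1, which had no such match. Capitals mark every match to any of the 4 motifs.
Trem2 chr17:48346151-48346400, plus strand: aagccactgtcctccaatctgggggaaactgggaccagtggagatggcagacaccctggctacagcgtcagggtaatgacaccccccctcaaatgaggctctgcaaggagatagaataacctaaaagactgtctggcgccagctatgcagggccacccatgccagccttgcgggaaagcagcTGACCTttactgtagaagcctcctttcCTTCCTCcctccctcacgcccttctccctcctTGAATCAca
Itgax chr7:128129300-128129549, plus strand: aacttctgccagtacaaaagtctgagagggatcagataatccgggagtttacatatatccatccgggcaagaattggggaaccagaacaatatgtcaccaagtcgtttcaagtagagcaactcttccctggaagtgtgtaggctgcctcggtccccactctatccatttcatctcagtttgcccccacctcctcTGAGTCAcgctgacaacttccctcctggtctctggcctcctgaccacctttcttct
Cd68 chr11:69666171-69666420, minus strand: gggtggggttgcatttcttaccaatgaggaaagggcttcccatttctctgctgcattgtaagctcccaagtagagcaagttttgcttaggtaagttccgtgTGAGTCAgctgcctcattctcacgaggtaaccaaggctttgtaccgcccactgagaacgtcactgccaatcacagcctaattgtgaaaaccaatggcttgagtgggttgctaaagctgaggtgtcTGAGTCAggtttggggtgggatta

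Trem2 was the member with matches to 3 of the motifs. Its AGGTCA core lay 68 to 63 bases before the start on the opposite strand, GAGGAAG 41 to 35 bases before it on the opposite strand, and TGANTCA 9 to 3 bases before it. Cd68 had its TGANTCA matches 149 to 143 and 24 to 18 bases before the start, and Itgax had its match 56 to 50 bases before. Spp1 had GAGGAAG 113 to 107 bases before the first of its starts. No match overlapped another. AGGTCA occurred in 14.0% of all 32851 promoters of that length, GAGGAAG in 10.6%, TGANTCA in 6.75% and CACGTG in 6.02%. Of the 9 member windows, 1 held AGGTCA, 2 GAGGAAG, 3 TGANTCA and 0 CACGTG. These are matches of letters in short windows, with no binding measured.

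In WAT, 11 of the 14 tested probes and 8 of the 9 genes were lower in sg/sg mice than in WT mice, and no probe was higher. One of the 11, Gpnmb A_52_P417819, had passed the filter on dim probes through the WT arrays, and of the 13 probes well above background on at least 4 of 5 arrays in both genotypes 10 were lower. Over all 32315 probes tested in WAT, 21.9% passed the same test (limma, Benjamini-Hochberg adjusted p under 0.05), 9.14% as lower and 12.8% as higher. With 1 probe a gene, the median change of the 9 members was -2.04 on the log2 scale, beside 0.09 over all genes tested. In 8 genes at least 1 probe read lower on every sg/sg array than on any WT array, which held for 11 member probes and for 8.71% of all probes. Cd9 was the member that did not pass. In whole tissue, fewer cells of a type and less RNA per cell cannot be told apart.

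The receptor and its adaptor fell together in WAT. Trem2 (probe A_51_P269546) read 5.17, 5.99, 3.84, 4.11 and 4.0 on WT replicates 1 to 5. On the sg/sg arrays it read 1.53, 1.73, 1.18, 1.77 and 2.61. The highest sg/sg array was below the lowest WT array, and WT replicates 1 and 2 stood above the other WT arrays. The change was -2.86 on the log2 scale (SE 0.43, 95% confidence interval -3.81 to -1.91, 7.25-fold lower, limma adjusted p = 0.00196). A second Trem2 probe, A_51_P269549, gave -3.06 (SE 0.50, adjusted p = 0.00267), again with no overlap between genotypes.

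Tyrobp, the signalling adaptor, read 4.35, 4.77, 3.67, 3.38 and 3.75 in WT WAT and 2.07, 2.26, 2.58, 2.48 and 2.52 in sg/sg WAT. Its groups did not overlap either. The change of -1.60 (SE 0.25, 3.03-fold lower, limma adjusted p = 0.00226) was smaller than that of Trem2, though the difference between the 2 genes was not tested. Its probe is 1 of 3 among the 15 whose 60 bases lie over more than 60 bases of genome, and so join sequence on both sides of a gap. The probes of Tyrobp and Lgals3, whose oligo letters are given here as the items measured, lie on build mm7 at chr7:27358831-27360558 and chr14:42712515-42713331. No base in them is singled out, and no annotation of that build was used here, so the exons under them are not stated.
Tyrobp A_51_P261517: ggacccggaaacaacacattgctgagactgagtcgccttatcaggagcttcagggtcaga
Lgals3 A_51_P101929: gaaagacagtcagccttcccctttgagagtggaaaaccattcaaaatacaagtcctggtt

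Gpnmb, a membrane glycoprotein of lysosome-rich macrophages, and Spp1, the secreted matrix protein osteopontin, had the largest falls among the members. Gpnmb (A_51_P438967) read 4.19, 5.27, 2.56, 2.56 and 2.97 in WT WAT. It read -0.69, -0.90, -0.50, -0.57 and 0.67 in sg/sg WAT, where replicate 5 stood above the other 4 arrays and still below every WT array. The change was -3.91 (SE 0.54, 15.0-fold lower, limma adjusted p = 0.00144). The other Gpnmb probe, A_52_P417819, was well above background on 5 of 5 WT arrays but on 1 of 5 sg/sg arrays. Its fitted change was -4.61 (SE 0.70, adjusted p = 0.00212), and with the normexp background correction it was -0.44 and did not pass the test (adjusted p = 0.712).

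Spp1, which has 10 spots on each array, read 2.16, 4.38, 0.89, 1.09 and 1.43 in WT WAT and -3.53, -1.39, -2.34, -2.28 and -0.03 in sg/sg WAT. The groups did not overlap, though both spread widely, over 3.49 in WT and 3.50 in sg/sg. The change was -3.91 (SE 0.76, 95% confidence interval -5.60 to -2.21, 15.0-fold lower, limma adjusted p = 0.00619).

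Lgals3, which encodes the sugar-binding protein galectin-3, read 6.14, 6.35, 5.20, 5.29 and 5.31 in WT WAT and 3.41, 3.48, 3.51, 3.72 and 3.97 in sg/sg WAT. The sg/sg arrays lay close together and well below the WT arrays. The change was -2.04 (SE 0.24, 4.11-fold lower, limma adjusted p = 9.2e-04).

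Itgax, the integrin subunit CD11c that marks dendritic cells and the macrophages recruited to obese fat, had the smallest p-value of the members in its first probe, A_51_P303424. That probe read 2.71, 3.71, 1.80, 1.80 and 1.91 in WT WAT and -1.49, -1.14, -0.92, -1.65 and -0.33 in sg/sg WAT. No sg/sg array came near a WT array, and the change was -3.50 (SE 0.40, 11.3-fold lower, limma adjusted p = 7.7e-04). A second probe, A_52_P424887, which the array design names through a cDNA clone, was at -0.82 (SE 0.35, adjusted p = 0.125) with overlapping groups. The probes of Itgax thus disagreed on whether the gene passed.

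Cd9, a tetraspanin that adipocytes, endothelium and many other cells also make, stood apart from the other members in WAT. Its brightest probe, A_51_P320852, read 3.73, 4.46, 3.1, 3.35 and 3.56 in WT WAT and 3.09, 2.99, 3.20, 3.77 and 3.23 in sg/sg WAT. The groups overlapped, with the sg/sg mean at 3.26 and the WT mean at 3.64. The difference of -0.38 (95% confidence interval -0.93 to 0.16, limma adjusted p = 0.303) leaves room for a fall of the size of 0.93 but not for one as large as the other genes showed. Probe A_51_P320626, named through a cDNA clone, was at -0.02 (95% confidence interval -0.48 to 0.44, adjusted p = 0.958).

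The general macrophage genes fell as well. Cd68, a glycoprotein of the endosome and lysosome membrane, read 3.90, 4.57, 3.0, 3.01 and 2.98 in WT WAT and 1.44, 1.55, 1.96, 1.15 and 1.98 in sg/sg WAT. Its change was -1.88 (SE 0.33, 3.68-fold lower, limma adjusted p = 0.00355). Mpeg1, which encodes the pore-forming protein perforin-2, read 4.88, 5.15, 4.34, 4.21 and 4.38 in WT WAT and 2.20, 2.82, 2.63, 1.90 and 3.22 in sg/sg WAT on probe A_51_P390538. Both genes were without overlap between genotypes. The Mpeg1 change was -2.03 (SE 0.27, 4.10-fold lower, adjusted p = 0.00133), and its dimmer probe A_52_P180373 gave -1.97 (SE 0.28, adjusted p = 0.0016). With normexp the dimmer probe was at -0.71 and no longer passed.

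**Figure D1:**
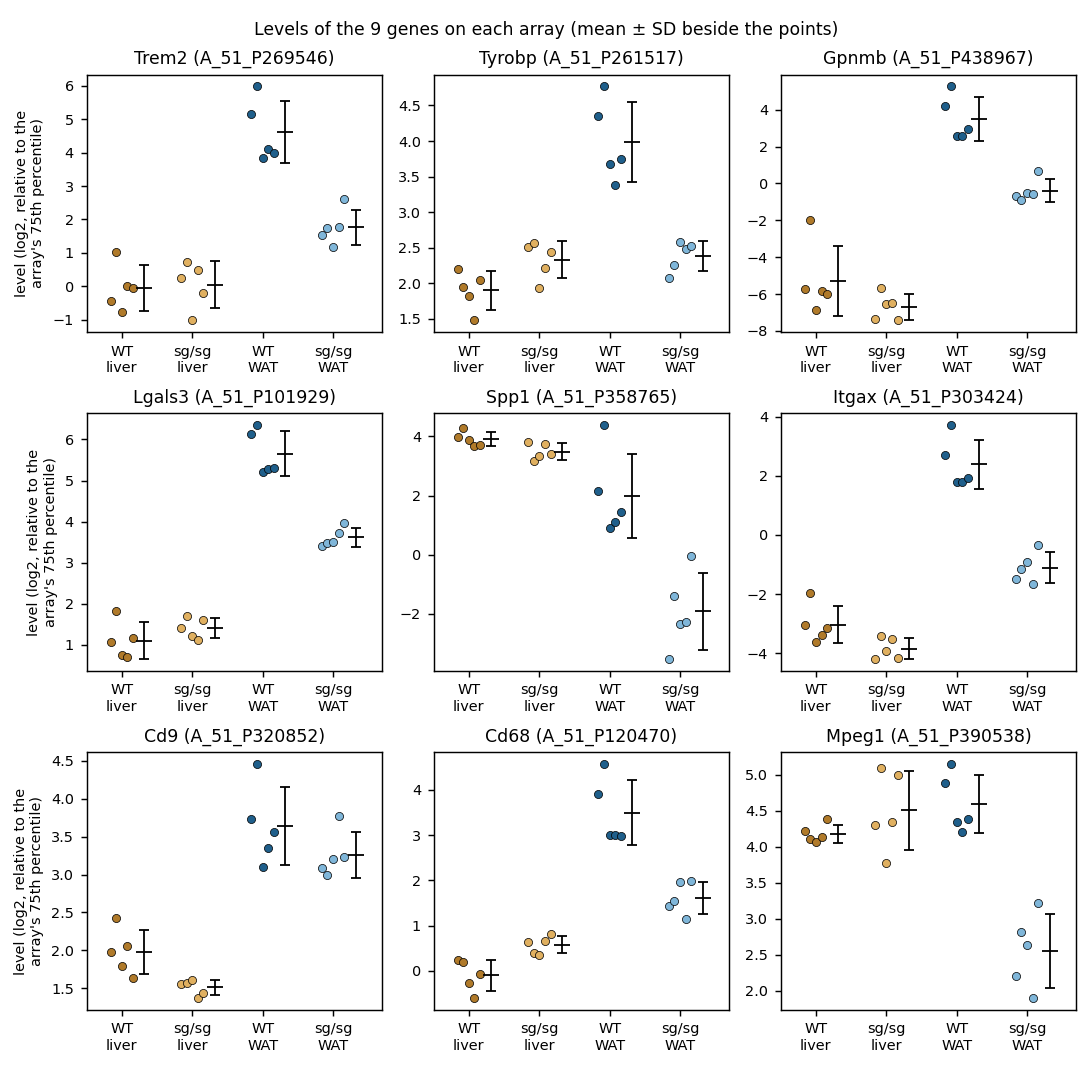
Level of the brightest probe of each of the 9 genes on every array (log2, relative to the array's 75th percentile), by genotype and tissue, with the mean and SD of the 5 arrays beside the points. In WAT the sg/sg arrays lie below all WT arrays for every gene but Cd9. Gpnmb in liver was well above background on 1 of 10 arrays.

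The WT arrays of WAT were not alike. Replicate 2 was the highest of the 5 WT arrays in 14 of 14 member probes, and replicate 1 was above replicates 3, 4 and 5 for each of the 9 genes in the brightest probe. The mean level over the 9 genes was 4.14, 4.96, 3.16, 3.20 and 3.37 on WT replicates 1 to 5, and 0.89, 1.27, 1.26, 1.14 and 1.98 on the sg/sg arrays. Among the sg/sg arrays replicate 5 was the highest in 10 of 14 probes. The 21 general macrophage markers ranked WT replicates 2 and 1 highest too, with mean levels of 2.53 and 2.32, while the 11 adipocyte markers were lowest on WT replicate 2, at 5.51. The part of cell makeup in this spread was not tested. With WT replicates 1 and 2 both left out, an alternative added after the values were seen, 11 of the 14 probes still passed as lower, and the median change over the 14 probes was -1.70 in place of -2.04.

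The members also varied together within a genotype. Over the 10 WAT arrays, with each genotype's mean subtracted, the 28 pairs of members without Cd9 had correlations between 0.651 and 0.967, with a median of 0.861. The 8 pairs with Cd9 had a median of 0.666. In liver the 28 pairs of the 8 tested members had a median of 0.382, from -0.320 to 0.731. These are descriptions over arrays that share their scaling, and in WAT they draw on the high levels of WT replicates 1 and 2. The genes whose WAT profile was most like the mean of the standardized members included Apbb1ip, Matk, Arl11, Timp1 and Fmn1, with Pearson r from 0.994 to 0.996 over the 10 arrays and from 0.968 to 0.979 within genotypes, among 22314 genes ranked. In liver they were B9d1, Sfxn3, Glipr1, Zcwpw1, Cd63 and AI448196, with r from 0.881 to 0.965 among 17275 genes.

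**Figure D2:**
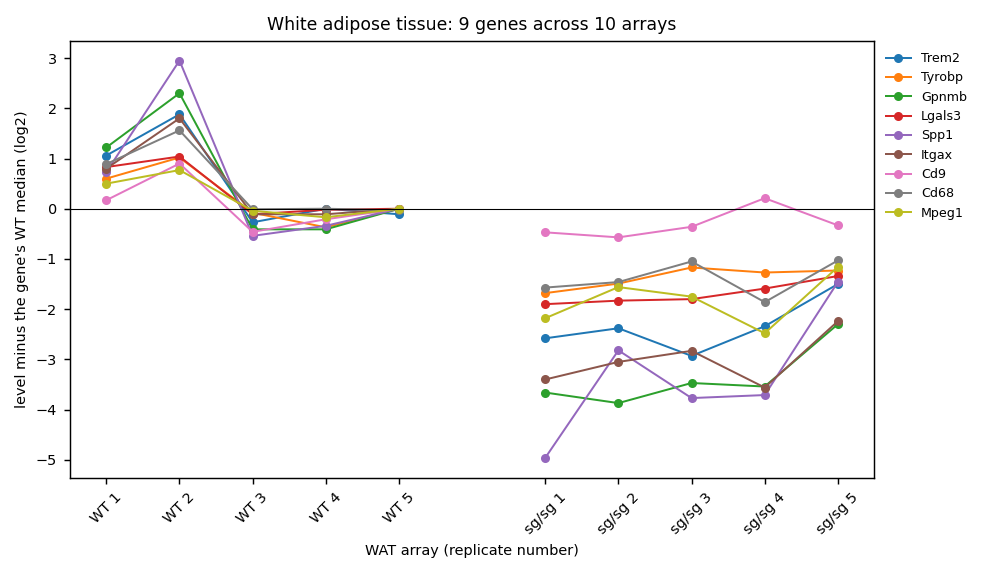
Level of the brightest probe of each gene on the 10 WAT arrays, as the log2 difference from that gene's median over the WT arrays. Lines only join the points of a gene, since replicates have no order. WT replicates 1 and 2 lie highest, and on the sg/sg arrays Cd9 lies nearest to 0.

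Each of the 3 WAT slides held both genotypes, and the change was negative on each of them for all 11 probes that had passed. For Trem2 (A_51_P269546) it was -2.76, -2.10 and -3.52 on slides 1, 2 and 3. For Gpnmb (A_51_P438967) it was -4.11, -2.89 and -4.60, for Itgax (A_51_P303424) -3.65, -2.54 and -4.25, and for Cd68 -2.10, -1.01 and -2.35. Slide 1 held 2 arrays of each genotype, slide 2 held 1 WT and 2 sg/sg arrays, and slide 3 held 2 WT and 1 sg/sg array, a lone array being assumed to vary like the others. At that size 0 member probes and 0 of all probes passed limma's adjusted threshold within a single slide. At an unadjusted p under 0.05 there were 11 member probes among 4781 of all 32289 probes on slide 1, 9 among 5078 of 32299 on slide 2, and 5 among 4310 of 32310 on slide 3. With slide as a fixed block over all 10 arrays, 11 member probes passed.

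In liver the same genes showed small differences in both directions. Of the 11 tested probes 2 passed the test: Cd68 was higher in sg/sg liver and Cd9 was lower. Over all 24675 liver probes 14.6% passed, 8.10% as higher and 6.49% as lower, so the members' share is near that of the array as a whole. With scaling to the median of each array, 865 probes were higher and 2291 lower in place of 1999 and 1602, and the median over all probes went from 0.04 to -0.07. The median change of the 8 tested members was 0.21, beside 0.05 over all genes.

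Cd68 read 0.23, 0.19, -0.27, -0.60 and -0.06 in WT liver and 0.63, 0.40, 0.36, 0.66 and 0.81 in sg/sg liver, with every sg/sg array above every WT array, as in 6.62% of all liver probes. The change was 0.68 (SE 0.16, 1.60-fold higher, limma adjusted p = 0.025). Cd9 (A_51_P320852) read 1.98, 2.42, 1.79, 2.05 and 1.64 in WT liver and 1.56, 1.57, 1.61, 1.37 and 1.44 in sg/sg liver, with every sg/sg array below every WT array, as in 5.56% of all liver probes, by a narrow gap between 1.61 and 1.64. Its change was -0.47 (SE 0.13, 1.38-fold lower, adjusted p = 0.0422). Neither call held with slide as a fixed block, where Cd68 was at 0.53 (adjusted p = 0.699) and Cd9 at -0.06 (adjusted p = 0.958). In that fit 3 of all 24675 probes passed, so the loss of a call there says little about either gene. On the liver slides genotype and slide were partly confounded: slide 1 held WT arrays only, slide 3 sg/sg arrays only, and slide 2 held WT replicate 5 with 3 sg/sg arrays. Leaving out WT replicate 3, WT replicate 4 or sg/sg replicate 5 ended the Cd68 call, and Cd9 kept its call in 1 of the 10 fits that left out an array.

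The receptor and adaptor did not pass in liver. Trem2 (A_51_P269546) read -0.44, 1.02, -0.78, 0.00 and -0.06 in WT liver and 0.26, 0.72, -1.02, 0.50 and -0.21 in sg/sg liver, which overlap almost fully. The difference was 0.10 (95% confidence interval -0.74 to 0.94, limma adjusted p = 0.875), an interval that leaves room for a change of either sign. Tyrobp was at 0.43 (95% confidence interval 0.08 to 0.78, adjusted p = 0.0878). Lgals3 was at 0.31 (adjusted p = 0.320), both Mpeg1 probes were at 0.32, Spp1 was at -0.41 (adjusted p = 0.0925) and Itgax (A_51_P303424) at -0.81 (adjusted p = 0.0834).

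Gpnmb was well above background on a single liver array, WT replicate 2, where A_51_P438967 read -1.99 against -5.74, -6.88, -5.82 and -5.97 on the other WT arrays. Of the 11 tested probes 6 were also at their highest WT value on that array, those of Trem2, Lgals3, Itgax (A_51_P303424), Cd9 and Spp1. The probes of Cd68, Tyrobp and Mpeg1 and Itgax A_52_P424887 were highest on other WT arrays. The 7 tested adipocyte markers averaged 2.08 on WT replicate 2, beside 0.21 to 1.44 on the other WT liver arrays and -0.61 to 0.27 in sg/sg liver. Of the 11 adipocyte markers 7 were well above background on 5 of 5 WT liver arrays, Retn on 1, and the defining markers Adipoq, Plin1 and Lep on 0. The 6 tested cell cycle genes averaged 0.20 on that array and -1.30 to -1.06 on the other WT liver arrays. The part of these in the member levels was not tested.

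**Figure D3:**
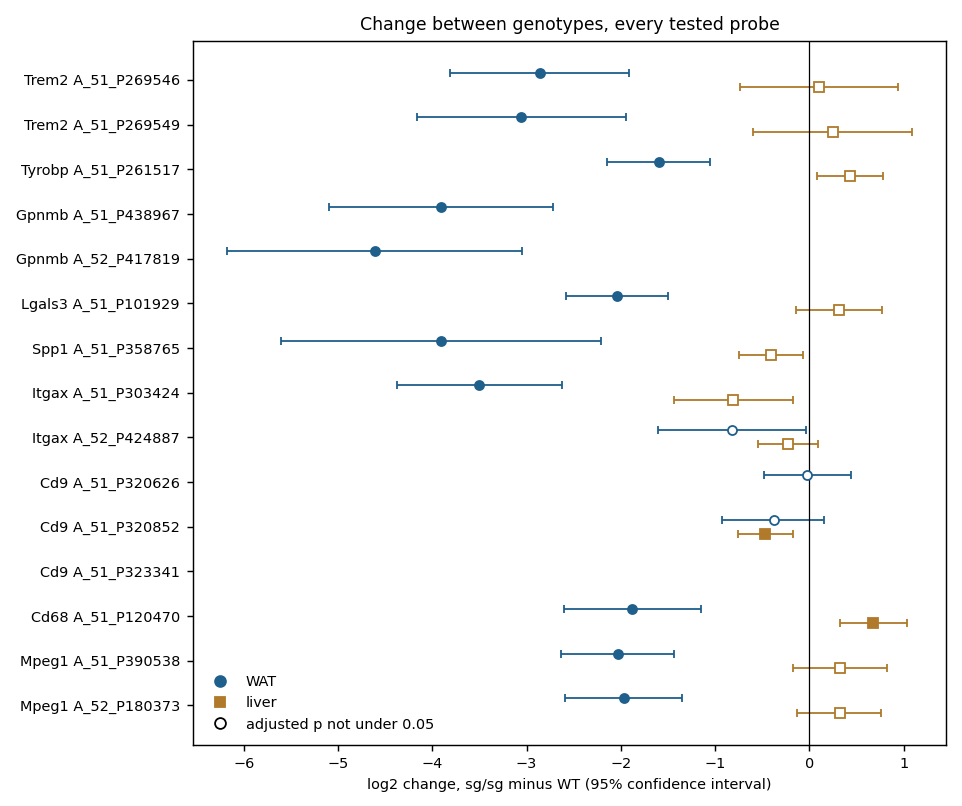
Log2 change between genotypes (sg/sg minus WT) with its 95% confidence interval for every tested probe, in WAT (circles) and liver (squares), filled where the adjusted p was under 0.05. In WAT 11 of 14 probes lie clearly below 0, and in liver the 11 tested probes lie between -0.81 and 0.68. A_51_P323341 was tested in neither tissue.

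The genotype effect differed between the tissues for most members. In a fit to all 20 arrays, 10 of the 14 probes had a more negative effect in WAT than in liver, and 0 had a less negative one, or 9 of the 11 probes well above background on at least 4 of 5 arrays in each of the 4 groups. This stood beside 16.4% of all 32626 probes passing that test, 8.34% as more negative in WAT and 8.04% as less negative. With median scaling 2967 of all probes were less negative and 1960 more negative, in place of 2623 and 2720, and 10 member probes still passed. The difference of effects was -2.96 (SE 0.61, limma adjusted p = 0.0028) for Trem2, -2.35 (SE 0.34, adjusted p = 1.9e-04) for Lgals3 and -2.69 (SE 0.52, adjusted p = 0.00174) for Itgax (A_51_P303424). It was -3.49 for Spp1, -2.56 for Cd68, -2.03 for Tyrobp, and -2.36 and -2.29 for the Mpeg1 probes. Gpnmb A_52_P417819 was at -5.10, a value with no measured size, since the probe was well above background on 0 of 10 liver arrays and 1 of 5 sg/sg WAT arrays, and its call was lost with the normexp background correction (-0.66, adjusted p = 0.605). The brighter Gpnmb probe was at -2.50 and did not pass (adjusted p = 0.103). It was well above background on 1 of 10 liver arrays, so that size is not measured either. Of the 20 fits that left out an array it passed in 1, the fit without WT liver replicate 2. The 2 tested Cd9 probes were at 0.08 and -0.58 and did not pass. Genotype and slide were partly confounded on the liver slides, and this enters the difference of effects. No fit with slide as a fixed block was run for it. Liver and WAT arrays were on different slides, so tissue and slide cannot be told apart.

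In WT mice the levels themselves differed between WAT and liver. Of the 14 probes 12 passed, 10 as higher in WAT and 2 as lower (7 higher and 2 lower among the 11 probes well above background on at least 4 of 5 arrays in both), where 74.4% of all probes passed this comparison of 2 organs, 34.2% as higher in WAT and 40.2% as lower. Trem2 was 4.68 higher in WAT on the log2 scale (SE 0.43, 25.6-fold, limma adjusted p = 8.5e-09), Itgax (A_51_P303424) 5.42 (42.8-fold), Lgals3 4.56 (23.6-fold), Cd68 3.60 (12.1-fold), Tyrobp 2.08 (4.24-fold) and Cd9 1.66 (3.17-fold). Gpnmb (A_51_P438967) read from 2.56 to 5.27 in WT WAT and from -6.88 to -1.99 in WT liver, where it was well above background on 1 of 5 arrays, so the size of the difference is not given. The other Itgax probe, A_52_P424887, was lower in WAT by this fit, at -0.80 (adjusted p = 0.016), with overlapping groups, and its call was lost with normexp and without WT WAT replicate 3 or 4. For probes below background on every WT liver array only a bound can be given, set on each array by the dimmest signal that still counted as well above background. By it, and with the main background correction, Gpnmb A_52_P417819 was at least 3.49-fold higher in WAT (1.80 on the log2 scale). Cd9 A_51_P320626 was at least 3.24-fold higher (1.69 on the log2 scale). Their calls (limma adjusted p = 1.8e-06 and 2.3e-09) belong to fitted differences of 3.99 and 3.33, which rest on liver values below background. Both probes had passed the filter through WAT, and with normexp neither call held, at 0.72 (adjusted p = 0.331) for Gpnmb and 0.38 (adjusted p = 0.369) for Cd9. These values lie below the bounds, so the bounds depend on the background correction. Spp1 was the exception among the brightest probes, being 1.91 lower in WAT than in liver (95% confidence interval -3.13 to -0.69, adjusted p = 0.0063). Its call was lost with quantile normalization (adjusted p = 0.0533). Bile duct epithelium in liver is known to make Spp1, and its part in this difference was not tested. Mpeg1 did not pass on either probe, at 0.41 and -0.07.

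The order of the 4 groups therefore differed from gene to gene. For Trem2, Lgals3, Itgax and Cd68 (the brightest probes) WT WAT was highest, sg/sg WAT came next and stayed above every liver array. The liver groups overlapped for these genes except Cd68. For Tyrobp WT WAT was highest, and sg/sg WAT, at 2.07 to 2.58, overlapped with sg/sg liver, at 1.93 to 2.56. For Mpeg1 sg/sg WAT was lowest, at 1.90 to 3.22, below every array of the other 3 groups, whose levels overlapped. For Spp1 sg/sg WAT was again lowest, at -3.53 to -0.03, and WT WAT spanned 0.89 to 4.38, from below to above the liver arrays. For Cd9 the WAT groups overlapped and lay above both liver groups. Gpnmb in sg/sg WAT was at least 25.7-fold above sg/sg liver, where no array was well above background.

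Genes around the members in their pathway fell with them in WAT. Of 27 tested genes of TREM2 and DAP12 signalling 20 were lower, 0 were higher and 7 did not pass, with a median of -0.78. Over all genes, 9.18% were lower and 13.8% higher with 1 probe a gene. The kinase Syk, which docks on TYROBP, was at -1.85 (SE 0.25, limma adjusted p = 0.00134), the phospholipase Plcg2 at -1.0 (SE 0.14, adjusted p = 0.00142) and the exchange factor Vav3 at -1.28 (SE 0.16, adjusted p = 0.00112). In liver the same list had 4 of 24 genes higher and 2 lower, with the linker Blnk at -1.51 and the sheddase Adam10, which cleaves TREM2 from the surface, at -0.53. Over all liver genes 8.65% were higher and 6.69% lower. With any 1 array left out this list had 0 to 4 genes higher and 1 to 3 lower in liver.

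The lipid handling list was split in WAT. Of 21 tested genes 9 were lower, 4 higher and 8 did not pass. The scavenger receptor Olr1 was at -2.79 (SE 0.30, limma adjusted p = 6.8e-04) and the cholesterol esterifying enzyme Soat1 at -1.91 (SE 0.27, adjusted p = 0.00152), while the mitochondrial glycerol phosphate dehydrogenase Gpd2 was at 1.33 (SE 0.20, adjusted p = 0.00212). Several genes of this list are also made by adipocytes. In liver 5 of 19 were lower and 3 higher, the lower ones led by Acat1 at -0.74, the droplet coat protein Plin2 at -0.88 and the cholesterol ester hydrolase Nceh1 at -1.29. These are levels of whole liver, so the cells behind the changes, macrophages or others, are not known. With any 1 array left out the liver counts were 3 to 4 lower and 0 to 5 higher.

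Among lysosome and phagosome genes 12 of 24 were lower in WAT and 0 were higher. The 2 with the largest falls were the macrophage elastase Mmp12, at -5.61 (SE 0.78, 48.9-fold lower, limma adjusted p = 0.0015), and the proton pump subunit Atp6v0d2, at -4.96 (SE 0.64, 31.2-fold lower, adjusted p = 0.0012). In liver 3 of 22 were higher and 0 lower, namely the transcription factors Tfec at 0.68 and Tfe3 at 0.39 and the cathepsin Ctsl at 0.32. This stood beside 8.65% of all liver genes higher with 1 probe a gene. The count was 2 to 3 with any 1 array left out and fell with median scaling. Of the integrin and tetraspanin partners 8 of 20 were lower in WAT and 0 higher, among them Itgb2, the chain that pairs with CD11c, at -1.93 (SE 0.25, adjusted p = 0.00131), Cd44, a receptor for osteopontin, at -1.82 and Itga4 at -0.98. In liver 3 of 19 were higher, with the integrin subunit Itga5 at 0.82 and the leukocyte tetraspanin Cd53 at 0.72, and 2 lower, with galectin-1 (Lgals1) at -2.04. The count of 3 higher was 1 with slide as a random block and 1 to 2 with any 1 array left out.

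Other cell markers moved in the same WAT samples, and their part in the member changes was not tested. Of 21 general macrophage markers 16 were lower and 0 higher, with a median of -1.15. Mrc1 was at -0.74, Fcgr2b at -1.07 and Itgam at -1.30, and the first genes of that list, Adgre1 and Csf1r, were at -1.32 and -0.77. Their mean level ran from 1.89 to 2.53 on WT arrays and from 1.02 to 1.56 on sg/sg arrays. In the brightest probe, 8 of the 9 members had changes more negative than that list's median, a difference that was not tested. Resident macrophage markers were split in WAT, 2 of 11 lower and 2 higher, with Timd4 at 1.12, Id3 at 0.51 and C1qb at -0.87, and the Kupffer cell gene Clec4f was well above background on 2 of 5 arrays of each genotype. With any 1 array left out the counts were 0 to 4 lower and 1 to 3 higher, and without WT replicates 1 and 2 they were 0 and 1.

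Among other cells in WAT, 7 of 12 dendritic cell markers were lower and 1 higher, with Ciita at -1.37, Ccr7 at -1.35 and Clec9a at -1.26. Their mean level ran from -1.54 to -1.15 in WT and from -2.40 to -1.70 in sg/sg. Of 10 neutrophil markers 4 were lower, S100a8 at -2.96, Csf3r at -0.89 and Retnlg at -3.19 among them. Of 11 T and NK cell markers 1 was lower, Il7r at -3.52, which is near the 9.18% lower over all WAT genes. The median of that list was 0.09, the same as over all genes. All 10 cell cycle genes were lower, with a median of -1.96 and Aurkb at -1.76, Bub1 at -2.37 and Cdca8 at -1.68. Of 12 stellate cell and fibroblast markers 4 were lower, with Col1a1 at -0.84.

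The lists with more genes higher than lower in sg/sg WAT were those of mesothelium, bile duct epithelium, adipocytes and endothelium. Of 9 mesothelium markers 4 were higher, with Wt1 at 1.04 and Upk3b at 1.23. Their mean level ran from 0.15 to 1.5 in WT and from 1.34 to 2.0 in sg/sg. Of 9 bile duct epithelium markers 5 were higher, with Sox9 at 2.16, and Krt19 at 1.22 belongs to both lists. Of 11 adipocyte markers 5 were higher, with Pnpla2 at 0.49, Plin1 at 0.66 and Slc2a4 at 1.29, and 1 was lower. Their mean level ran from 5.51 to 6.27 in WT and from 6.40 to 6.73 in sg/sg. With slide as a fixed block the counts of higher genes were 1 for mesothelium, 3 for bile duct epithelium and 3 for adipocytes, and with any 1 array left out they were 1 to 6, 1 to 6 and 3 to 5. Each of these counts also changed with normexp and with the replicate block. Those of mesothelium and adipocytes changed with median scaling and with no filter on dim probes, and that of adipocytes with quantile normalization too. Over all WAT genes 13.8% were higher and 9.18% lower with 1 probe a gene. Of 10 endothelial markers 1 was higher, Vwf at 0.48, which does not exceed that share. The endothelial median was 0.09, the same as over all genes. The Vwf call was lost with normexp, quantile normalization, the replicate block and without WT replicates 1 and 2. Of 8 hepatocyte markers 0 passed limma's threshold in either direction.

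In liver the genes of the Kupffer cell and general macrophage lists that passed were higher. Over all liver genes 8.65% were higher and 6.69% lower with 1 probe a gene. Of 12 Kupffer cell markers 4 were higher and 0 lower, with a median of 0.61, among them the complement genes C1qa at 0.80 (SE 0.17, limma adjusted p = 0.0169), C1qb at 0.76 and C1qc at 0.60. Of 20 general macrophage markers 2 were higher, Lyz1 at 0.70 and Csf1r at 0.52, and 0 lower, which is near the share over all genes. With slide as a random block the counts of higher genes were 4 for the Kupffer cell markers and 1 for the general macrophage markers. The mean level of the Kupffer cell markers ran from 1.99 to 2.77 on WT arrays and from 2.53 to 3.18 on sg/sg arrays. With slide as a fixed block, where slide 2 alone held both genotypes, with 1 WT array, 3 of all 24675 probes passed, so that fit says little about any liver list. With any 1 array left out the count was 1 to 7 for the Kupffer cell markers and 1 to 6 for the general macrophage markers. Of 7 tested adipocyte markers 2 were lower in sg/sg liver, Cfd at -6.32 and Cidec at -3.42, and 1 was higher, Lpl at 0.94. Of 9 hepatocyte markers 3 were higher, Tat at 0.88, Fgb at 0.38 and Hpd at 0.50.

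**Figure D4:**
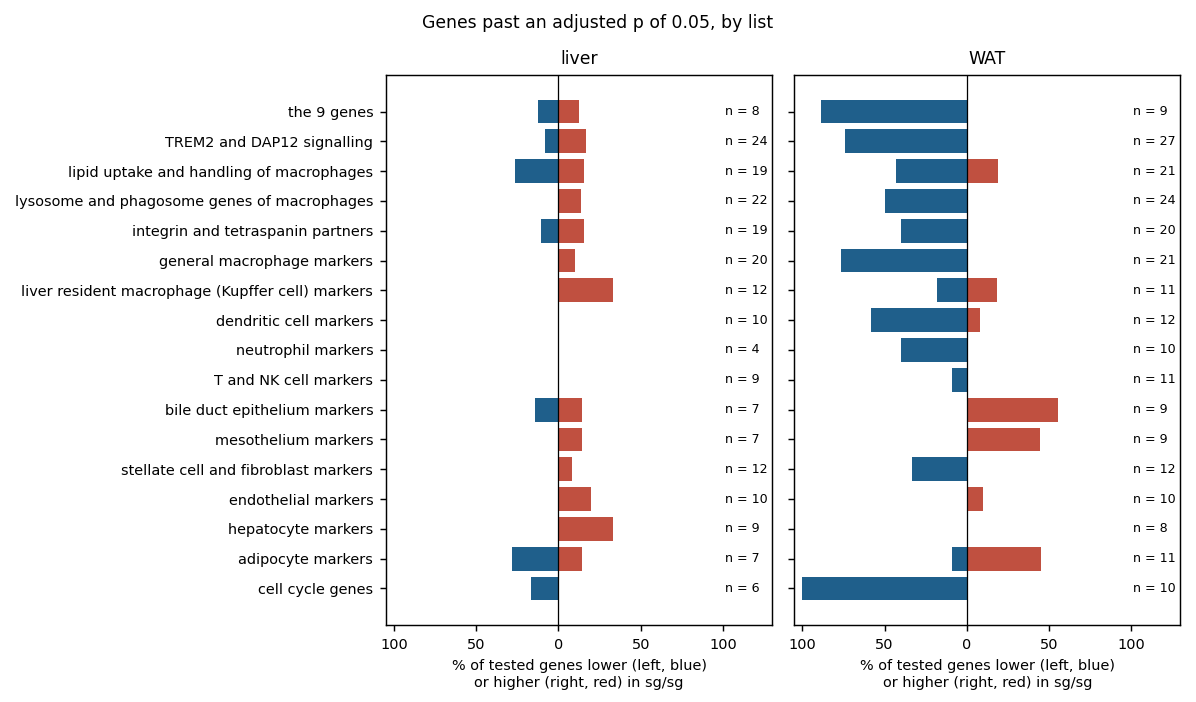
Share of tested genes in each list that were lower (left) or higher (right) in sg/sg mice at an adjusted p under 0.05, in liver and WAT, with the number tested. In WAT 8 of the 9 genes, 20 of 27 TREM2 and DAP12 signalling genes and 16 of 21 general macrophage markers were lower, and in liver 1 of the 8 tested genes was lower and 1 higher.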

How the data were processed

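The deposited values are intensity values, 1 per spot, that the authors obtained with Agilent Feature Extraction 9.5, per the file headers with spatial and multiplicative detrending and with surrogate values for dim spots. The deposited value table held identical numbers. Neither headers nor labels record a scaling between arrays. Because a surrogate replaces the signal of a dim spot, dim probes were filtered out.

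Each value was log2 of the processed intensity minus the 75th percentile of its array. Control spots were dropped, spots marked as outliers were treated as missing (9 of 480 member spot values, all of Spp1), and the spots of each probe were then averaged. Tested probes were well above background on 4 or more of the 10 arrays of the tissue and missing on 2 or fewer. Genotypes were compared per tissue with lmFit and eBayes of limma 3.58.1 in R 4.3.3, two-sided, by probe, with Benjamini-Hochberg adjustment over all probes and a threshold of 0.05. Comparisons between tissues came from a fit to all 20 arrays, which took them as independent. Lists used 1 probe a gene, the one of highest mean. Where a probe was dim on a whole group, the fold is a lower bound that depends on the main background correction. The steps were tested on simulated data.

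All probes of the 9 members are named. From each list and tissue up to 3 called genes of smallest p are named, with first-listed markers where a result needs them, plus the 6 genes most like the members. Some genes that this rule takes are not reported here. The members and the 16 lists (237 entries) were chosen with earlier results of these data known. RefSeq (GRCm38.p6) named 22951 of 41174 probes, the file 11758, and 6465 stayed unnamed. Alternatives changed the background correction, scaling, value source, dim filter, probe choice, slide, replicate block and arrays included.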

Additional observations from a re-analysis of the deposited data

Results flagged for a closer look

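In 4 of 60 groups of 5 arrays, 1 array lay far from the others by Dixon's test, and chance gives about 1 in 20. They were Gpnmb A_51_P438967 on WT liver replicate 2 at -1.99 and on sg/sg WAT replicate 5 at 0.67, Itgax A_52_P424887 on sg/sg WAT replicate 1 at -4.84 and Cd9 A_51_P320626 on WT WAT replicate 2 at -2.93. The genotype effect differed between WAT and liver (limma interaction, adjusted p under 0.05) for 10 probes, by -2.96 and -3.30 for the Trem2 probes, -5.10 for Gpnmb A_52_P417819, -2.35 for Lgals3, -2.69 for Itgax A_51_P303424, -3.49 for Spp1, -2.56 for Cd68, -2.03 for Tyrobp, and -2.36 and -2.29 for the Mpeg1 probes. The Gpnmb value has no measured size, since that probe was well above background on 0 of 10 liver arrays and 1 of 5 sg/sg WAT arrays, and it did not pass with the normexp background correction (-0.66, adjusted p = 0.605).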

How the results depend on the processing

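In WAT 11 member probes passed as lower under each fit that left out 1 array (range 11 to 11) and under every other alternative except normexp (9), 1 probe a gene (8 of 9 genes) and the single slides, where 0 passed on slides 1, 2 and 3. In liver the 2 calls became 1 with quantile normalization, median scaling or slide as a random block, and 0 with no filter on dim probes, slide as a fixed block or slide 2 alone, where 6, 0 and 1 member probes had an unadjusted p under 0.05 in limma. Leaving out 1 liver array gave 0 to 2 calls. For the difference between tissues the count of 10 stayed between 9 and 11 and was 7 of 9 genes with 1 probe a gene. For WT WAT against liver the count of 12 stayed between 9 and 13 and was 8 of 9 genes. No member value that had passed changed sign. Some that had not passed did, among them Itgax A_52_P424887, which went from -0.82 in WAT and -0.59 for the difference between tissues to 0.65 in each with normexp. For results that changed, the cause was not tested. With median scaling the balance of higher and lower calls over all probes turned in liver (865 higher, 2291 lower) and for the difference between tissues (2967 higher, 1960 lower). Over all probes, liver calls went from 3601 to 1245 with no dim filter, 3 with slide as a fixed block, 0 on slide 2 alone and 1171 to 4112 with 1 array left out. WAT calls went from 7083 to 1492 with normexp, 3801 without WT replicates 1 and 2 and 0 within any slide, and calls of a tissue difference from 5343 to 2149 with normexp. The labels do not say whether liver and WAT arrays of the same replicate number came from the same mouse. Same-number correlations ran from -0.194 to 0.168, with 1 of 5 over 0.1 in each pair of groups. Low correlations between organs cannot decide whether the arrays were paired. With the replicate block 0 member probes passed in liver (6 unadjusted), 11 in WAT and 11 for the difference between tissues, and over all probes 1658 passed in liver and 4488 in WAT. The number of arrays and the signal over background limit precision, most of all for Gpnmb in liver.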
